A study of Mus musculus with 2 samples.

Results

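The 10 genes of classical major histocompatibility complex (MHC) class I presentation were followed through retinoic acid (RA) treatment of mouse embryonic stem (ES) cells. They were chosen by symbol, with earlier results of these data known. The list holds the heavy chains H2-K1 and H2-D1, the light chain B2m, the peptide transporter genes Tap1 and Tap2 and the loading factor Tapbp. It also holds the immunoproteasome genes Psmb8, Psmb9 and Psmb10 and the transactivator Nlrc5. All 10 had at least 1 feature on the arrays, and together they made up 30 of 44397 features and 10 of 22485 named genes. H2-K1 had 11 features, Tap1 had 10 and Nlrc5 had 2, while the other 7 genes rested on 1 feature each.

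The 2 lines of mouse ES cells were compared on two-colour Agilent arrays, 1 array per line. The first group was the Utx knockout (UtxKO), whose labels also carry the name V6.5, and the second was wild-type V6.5. Kdm6a, on the X chromosome, is the gene of Utx, which takes methyl groups off the repressive histone mark H3K27me3. In each line, RA-treated cells had been kept for 48 h without leukaemia inhibitory factor (LIF) and with 100 nM RA, and untreated cells had been kept in medium with LIF. Both were grown on gelatin. Every value below is a log2 ratio within 1 line, RA-treated RNA over untreated, so removal of LIF and addition of RA cannot be told apart. How the knockout was made, and whether it is 1 clone, is not given in the sources used here. The Kdm6a probe had ratios of -0.16 in UtxKO cells and -0.39 in V6.5 cells, which compare conditions within a line and do not check the knockout.

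Class I molecules display peptides from inside the cell at the surface of most nucleated cells, where T cells and natural killer cells read them. The immunoproteasome cuts proteins into peptides, and the Tap1-Tap2 transporter pumps them into the endoplasmic reticulum. Tapasin (Tapbp) holds class I molecules that lack peptide beside the transporter, and B2m is their light chain. Mouse ES cells are known for low surface class I, which can rise on differentiation and with interferon. Nlrc5 is known to switch on class I promoters through their X and Y boxes.

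The direction of the ratios is a likely reading, RA-treated (Cy5) over untreated (Cy3), from the dyes in the labels and the red-over-green convention of limma. Of 6 RA target genes measured, 5 rose with RA, with ratios of 4.27 in UtxKO cells and 3.54 in V6.5 cells for Cyp26a1, the enzyme that degrades RA. With 1 array per line, no value of a line has a replicate check. Both arrays together gave 1 test, a limma fit across all genes in which the UtxKO and V6.5 ratios count as 2 samples of one shared response. A gene that passed it, at a Benjamini-Hochberg adjusted p under 0.05 over all genes, is said below to have risen or fallen. Any bias of a dye at a gene is part of the value, because no dye swap was used here.

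In all, 6 of the 10 genes rose with RA and 0 fell, against 8.93% of all genes that rose and 7.93% that fell. As the members were chosen with earlier results of these data known, these shares are a description and no test of the set. At an unadjusted limma p under 0.05, 8 were higher with RA, as were 16.8% of all genes, and 0 were lower, against 17.9% of all genes. With treat, limma's test against a 1.5-fold change, H2-K1, Psmb8 and Psmb9 still passed (0.872% of all genes higher, 0.431% lower with 0 members). Those that rose against a ratio of 0 were Psmb8, H2-K1, Tap2, Psmb9, H2-D1 and Tap1. Tapbp, Psmb10, Nlrc5 and B2m did not pass. The median over the 10 genes was 1.09 on the UtxKO array and 0.86 on the V6.5 array, while the median over all genes was -0.02 on both. On the UtxKO array 5 of the 10 were at least 2-fold higher with RA, a fold reached by 2.92% of all genes, and 0 were 2-fold lower, against 1.65%. On the V6.5 array it was also 5 of 10, against 2.52% of all genes, and again 0 were 2-fold lower, against 1.59%. On both arrays they were Psmb8, H2-K1, Tap2, Psmb9 and H2-D1.

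**Figure D1:**
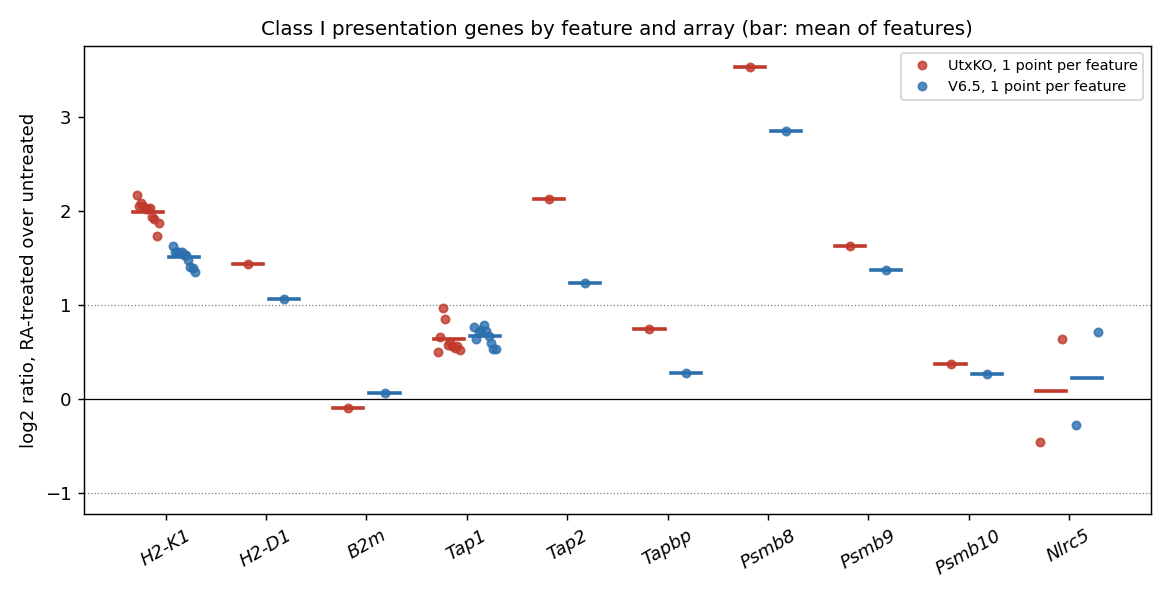
Log2 ratio with RA for each feature of the 10 genes (points), with the mean of a gene's features as a bar. UtxKO is drawn left of V6.5, dotted lines mark 2-fold, Psmb8 stands highest at 3.53 in UtxKO and 2.85 in V6.5, and B2m lies near 0 on both arrays.

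The heavy chain genes both rose. H2-K1, which encodes the K heavy chain, had a mean ratio of 1.99 ± 0.12 in UtxKO cells and 1.505 ± 0.089 in V6.5 cells (SD over 11 features of 1 array). These are a 3.96-fold and a 2.84-fold increase with RA. Over both arrays it rose by 1.75 ± 0.14 (moderated SE, n = 2 arrays, adjusted p = 0.0119 in limma). Fitted feature by feature, all 11 features of H2-K1 rose, where 8.32% of all features did and 8.13% fell. H2-D1, which encodes the D heavy chain, had ratios of 1.44 in UtxKO cells and 1.06 in V6.5 cells on its only feature. It rose by 1.25 ± 0.12 (n = 2 arrays, adjusted p = 0.0149 in limma). The class I heavy chain genes are close in sequence, so a probe for one can take up RNA of another, and the shares of H2-K1, H2-D1 and their relatives in these signals were not tested.

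B2m, the light chain that every classical class I molecule needs, had ratios of -0.10 in UtxKO cells and 0.06 in V6.5 cells. Its mean of -0.02 ± 0.08 (n = 2 arrays, adjusted p = 0.896 in limma) did not pass, on 1 feature. The heavy chain RNAs rose on the same arrays on which the B2m ratio lay near 0.

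The upstream sequences of both heavy chain genes and of B2m are shown because these genes are known to share regulatory boxes while their ratios differed. They are the 250 bases before the annotated start in RefSeq, build GRCm38.p6, read 5′ to 3′ on the gene's strand, with every match to a searched motif in capitals. For H2-K1, which has several annotated starts, the entry given first was used.
H2-K1 (chr17:34000348-34000597, minus strand): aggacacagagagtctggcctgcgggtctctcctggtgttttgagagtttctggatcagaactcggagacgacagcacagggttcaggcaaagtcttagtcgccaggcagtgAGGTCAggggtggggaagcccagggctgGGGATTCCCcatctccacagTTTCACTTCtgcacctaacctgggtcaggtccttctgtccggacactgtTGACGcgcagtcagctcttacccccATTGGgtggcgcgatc
H2-D1 (chr17:35262844-35263093, plus strand): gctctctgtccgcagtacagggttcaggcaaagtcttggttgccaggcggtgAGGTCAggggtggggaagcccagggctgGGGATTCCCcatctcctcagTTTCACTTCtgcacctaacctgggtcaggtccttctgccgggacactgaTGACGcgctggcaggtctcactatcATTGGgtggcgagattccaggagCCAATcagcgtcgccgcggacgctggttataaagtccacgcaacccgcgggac
B2m (chr2:122147437-122147686, plus strand): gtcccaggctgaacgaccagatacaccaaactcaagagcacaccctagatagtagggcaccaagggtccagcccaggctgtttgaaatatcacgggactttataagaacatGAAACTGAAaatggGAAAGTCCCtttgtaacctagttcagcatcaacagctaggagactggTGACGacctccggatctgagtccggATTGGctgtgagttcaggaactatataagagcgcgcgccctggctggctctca

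Of the 10 genes, 8 had an entry in the promoter table. In all, 6 motifs were searched on both strands: the interferon-stimulated response element core GAAANNGAA, the gamma-activated site TTCNNNGAA, the NF-kappa-B site GGGANTTTC, the Y box core CCAAT, the X2 box core TGACG and the nuclear receptor core AGGTCA. Another 2, GAANNGAAA (a second form of the interferon element) and GGGATTCCC (a symmetric NF-kappa-B core), were added after the promoters had been read. No match overlapped another in these genes.

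H2-K1 and H2-D1 shared 167 of 190 aligned bases, 87.9%. Both held GGGATTCCC, which 0.301% of 32851 promoters hold, at bases -110 to -102 before the start in H2-K1 and -170 to -162 in H2-D1. Both also held GAANNGAAA on the minus strand (6.31% of promoters), at -90 to -82 and at -150 to -142, and AGGTCA (14.0%), at -138 to -133 and at -198 to -193. GGGATTCCC and GAANNGAAA were added after these promoters had been read, so their matches here were known in advance. As the sequences of H2-K1 and H2-D1 are alike, matches found in both are not separate. B2m held the first form of the interferon element, GAAANNGAA (7.13%), at -139 to -131 and GGGANTTTC (0.941%) at -125 to -117. TGACG (17.8%) and CCAAT (33.8%), the letters of the X2 and Y boxes, occurred in all 3 of these promoters. The part of any of these letters in the ratios was not tested. A match is a description of letters and not a bound site.

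The transporter genes both rose, with unequal ratios. Tap2 had ratios of 2.12 in UtxKO cells, which is 4.36-fold, and 1.23 in V6.5 cells, which is 2.35-fold, on its 1 feature. It rose by 1.68 ± 0.24 (n = 2 arrays, adjusted p = 0.0254 in limma). Tap1, its partner in the transporter, had a mean ratio of 0.63 ± 0.15 in UtxKO cells and 0.67 ± 0.09 in V6.5 cells (SD over 10 features), about 1.55-fold and 1.59-fold. It rose by 0.65 ± 0.07 (n = 2 arrays, adjusted p = 0.0183 in limma), and all 10 features passed on their own. The 10 features ran from 0.49 to 0.96 on the UtxKO array and from 0.53 to 0.79 on the V6.5 array. Each of them lay below the single Tap2 feature of the same array. The Tap1 features may repeat one probe, and whether the gap to Tap2 lies in the probes or in the RNA was not tested. Tapbp, the bridge between transporter and heavy chain, had ratios of 0.74 in UtxKO cells and 0.27 in V6.5 cells and did not pass (adjusted p = 0.0861 in limma).

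The immunoproteasome genes held both the highest value of the group and one of the lowest. Psmb8, the inducible counterpart of the catalytic subunit Psmb5, had ratios of 3.53 in UtxKO cells, which is 11.5-fold, and 2.85 in V6.5 cells, which is 7.22-fold. Among all 22485 genes it ranked 40 from the top on the UtxKO array and 64 on the V6.5 array. Psmb8 rose by 3.19 ± 0.18 (n = 2 arrays, adjusted p = 0.00849 in limma). Psmb9, the counterpart of Psmb6, had ratios of 1.62 in UtxKO cells and 1.37 in V6.5 cells and rose by 1.49 ± 0.10 (n = 2 arrays, adjusted p = 0.00962 in limma). Psmb10, the counterpart of Psmb7, had ratios of 0.37 in UtxKO cells and 0.26 in V6.5 cells and did not pass (adjusted p = 0.0691 in limma). The 3 inducible subunits are built into the same particle, and their fold changes spanned 1.29 to 11.5 in UtxKO cells and 1.20 to 7.22 in V6.5 cells.

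The constitutive subunits that they replace were nearer 0 than Psmb8 and Psmb9, but not all were nearer 0 than Psmb10. Psmb5 had ratios of 0.24 in UtxKO cells and 0.08 in V6.5 cells, and Psmb7 had -0.16 in UtxKO cells and -0.36 in V6.5 cells. Neither passed. Psmb6 rose, with 0.44 in UtxKO cells and 0.35 in V6.5 cells (adjusted p = 0.0433 in limma). It was the only one of 14 constitutive core subunits to pass, and the 14 ran from -0.22 to 0.44 on the UtxKO array and from -0.36 to 0.35 on the V6.5 array. Of 5 genes for proteasome activators and assembly 1 rose, the nuclear activator Psme3 (0.59 in UtxKO cells and 0.61 in V6.5 cells). Over all genes, 8.93% rose. The interferon-inducible activator genes Psme1 (0.54 in UtxKO cells and 0.25 in V6.5 cells) and Psme2 (0.43 in UtxKO cells and 0.19 in V6.5 cells) did not pass.

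Tap1 and Psmb9 are read in opposite directions from starts with 225 bases between them, and Psmb8 lies beside Tap1. The shared stretch is shown because genes with a common upstream sequence had different ratios, 0.63 for Tap1 and 1.62 for Psmb9 in UtxKO cells and 0.67 for Tap1 and 1.37 for Psmb9 in V6.5 cells. It is written in the direction of Tap1, and the Psmb8 sequence is the 250 bases before its start, both from RefSeq, GRCm38.p6, with motif matches in capitals.
Tap1-Psmb9 (chr17:34187331-34187555, plus strand): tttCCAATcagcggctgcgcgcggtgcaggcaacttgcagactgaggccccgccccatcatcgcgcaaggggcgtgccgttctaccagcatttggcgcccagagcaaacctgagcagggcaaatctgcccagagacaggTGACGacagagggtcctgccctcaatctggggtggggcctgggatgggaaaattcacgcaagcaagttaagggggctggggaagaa
Psmb8 (chr17:34197945-34198194, plus strand): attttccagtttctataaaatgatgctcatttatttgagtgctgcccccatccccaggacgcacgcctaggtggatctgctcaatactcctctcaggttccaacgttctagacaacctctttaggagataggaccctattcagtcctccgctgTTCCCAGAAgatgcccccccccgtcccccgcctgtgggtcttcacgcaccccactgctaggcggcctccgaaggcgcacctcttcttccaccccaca

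The shared stretch held 1 CCAAT and 1 TGACG. The Psmb8 sequence held none of these and had 1 match to the gamma-activated site TTCNNNGAA (7.02% of promoters), at -97 to -89. In this window Psmb8 lacked the X2 and Y box letters, which 5 of the 8 promoters hold together. Tap1 and Psmb9, both among the 5, hold them in their shared stretch. The share of all promoters with both was not counted, and the part of these letters in the ratios was not tested.

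Nlrc5, the class I transactivator, had 2 features that went opposite ways. One had ratios of 0.63 in UtxKO cells and 0.71 in V6.5 cells and rose in the fit over features (adjusted p = 0.0164 in limma). The other had -0.46 in UtxKO cells and -0.28 in V6.5 cells and did not pass (adjusted p = 0.0641 in limma). Each feature gave the same sign on both arrays, both carry the same RefSeq accession in the annotation, and their mean of 0.15 ± 0.08 (n = 2 arrays, adjusted p = 0.269 in limma) therefore describes neither. Which feature stands for the Nlrc5 transcript was not tested.

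Among the 10 genes, the ratios of the 2 lines lay farthest apart at Tap2. A positive difference means a higher ratio in UtxKO cells than in V6.5 cells. It was 0.89 for Tap2, 0.67 for Psmb8, 0.48 for H2-K1, 0.47 for Tapbp, 0.38 for H2-D1, 0.26 for Psmb9 and 0.11 for Psmb10. It was -0.03 for Tap1, -0.13 for Nlrc5 and -0.17 for B2m. Thus 7 of 10 genes had a higher ratio in UtxKO cells, as did 50.7% of all genes, and none differed by 2-fold, against 0.583% of all genes at least 2-fold above and 0.467% at least 2-fold below. The median difference was 0.32 for the 10 genes and 0.00 for all genes, and over all genes the 5th and 95th percentiles were -0.38 and 0.41. With 1 array per line none of these differences has a test.

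At H2-K1 the features allow a closer look within the arrays. The 11 features ran from 1.73 to 2.16 on the UtxKO array, with a median of 2.02, and from 1.35 to 1.63 on the V6.5 array, with a median of 1.53. They did not overlap, and each of the 11 was higher on the UtxKO array, by 0.34 to 0.54. The features read the same labelled RNA and may repeat one probe, so they measure the spread within an array and not between cultures. How often the features of other genes separate in this way was not counted. At Tap1 only 4 of 10 features were higher on the UtxKO array and the ranges overlapped.

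**Figure D2:**
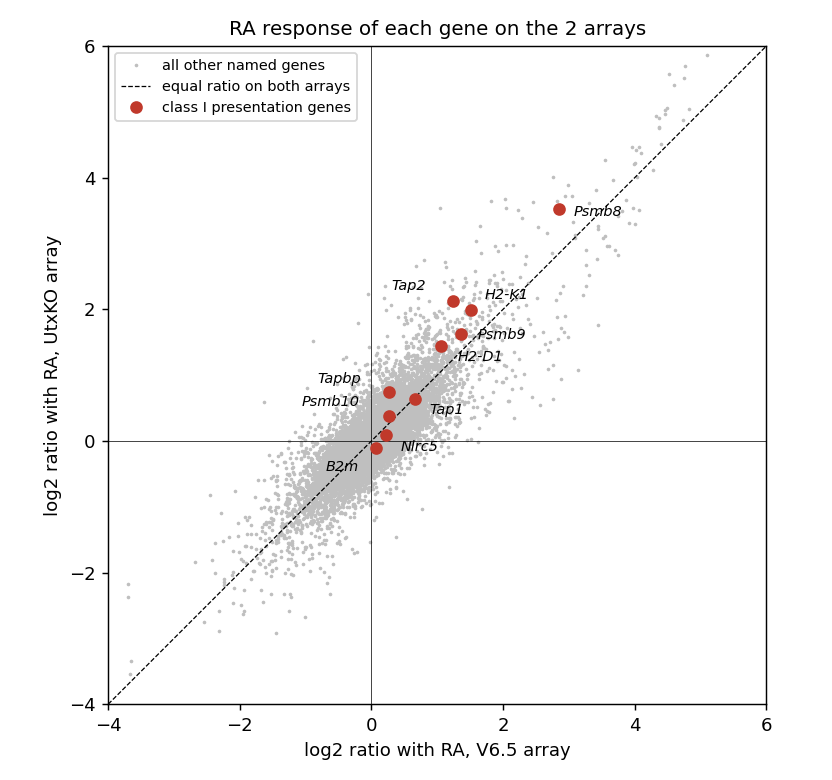
Log2 ratio with RA on the UtxKO array (vertical) against the V6.5 array (horizontal) for all named genes in grey and the 10 class I presentation genes in red, with a dashed line of equal ratios. Tap2, Psmb8, H2-K1, Tapbp and H2-D1 lie above the line, from 0.89 for Tap2 to 0.376 for H2-D1, and Tap1 lies about 0.035 below it.

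The genes that rose lie in the MHC. By the RefSeq gene table (GRCm38.p6, used for names and neighbours), 7 of the 10 genes are on chromosome 17 and 6 of these rose. The 3 on other chromosomes, B2m on chromosome 2 and Psmb10 and Nlrc5 on chromosome 8, did not pass, with medians of 0.09 on the UtxKO array and 0.22 on the V6.5 array, against 1.62 and 1.23 for the 7 genes on chromosome 17 on the same arrays. This grouping by chromosome was chosen after the values were seen. Between H2-K1 and H2-D1, without the members, 81 genes were measured, of which 4 rose (4.94%, against 8.93% of all genes) and 14 fell (17.3%, against 7.93% of all genes), and their median was -0.06 on the UtxKO array and -0.10 on the V6.5 array.

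Psmb9, Tap1, Psmb8 and Tap2 follow one another in the gene order with no other measured gene between them. On one side their neighbour H2-DMb1, a class II loading factor, had ratios of 0.13 in UtxKO cells and -0.32 in V6.5 cells. On the other side H2-Ob, of the same class II loading system, had -0.17 in UtxKO cells and -0.09 in V6.5 cells. Neither passed. H2-K2, a class I gene close to H2-K1, rose (1.82 in UtxKO cells and 1.58 in V6.5 cells), while Ring1, a Polycomb gene next to H2-K1, had 0.26 in UtxKO cells and 0.31 in V6.5 cells without passing. Of 8 measured genes of the H2-Q class I family, placed beyond H2-D1 where the gene table gives a position, 7 rose, with ratios of 1.22 to 2.44 in UtxKO cells and 1.14 to 2.02 in V6.5 cells. The next measured gene in the order, the pluripotency factor Pou5f1, fell (-1.58 in UtxKO cells and -0.94 in V6.5 cells).

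**Figure D3:**
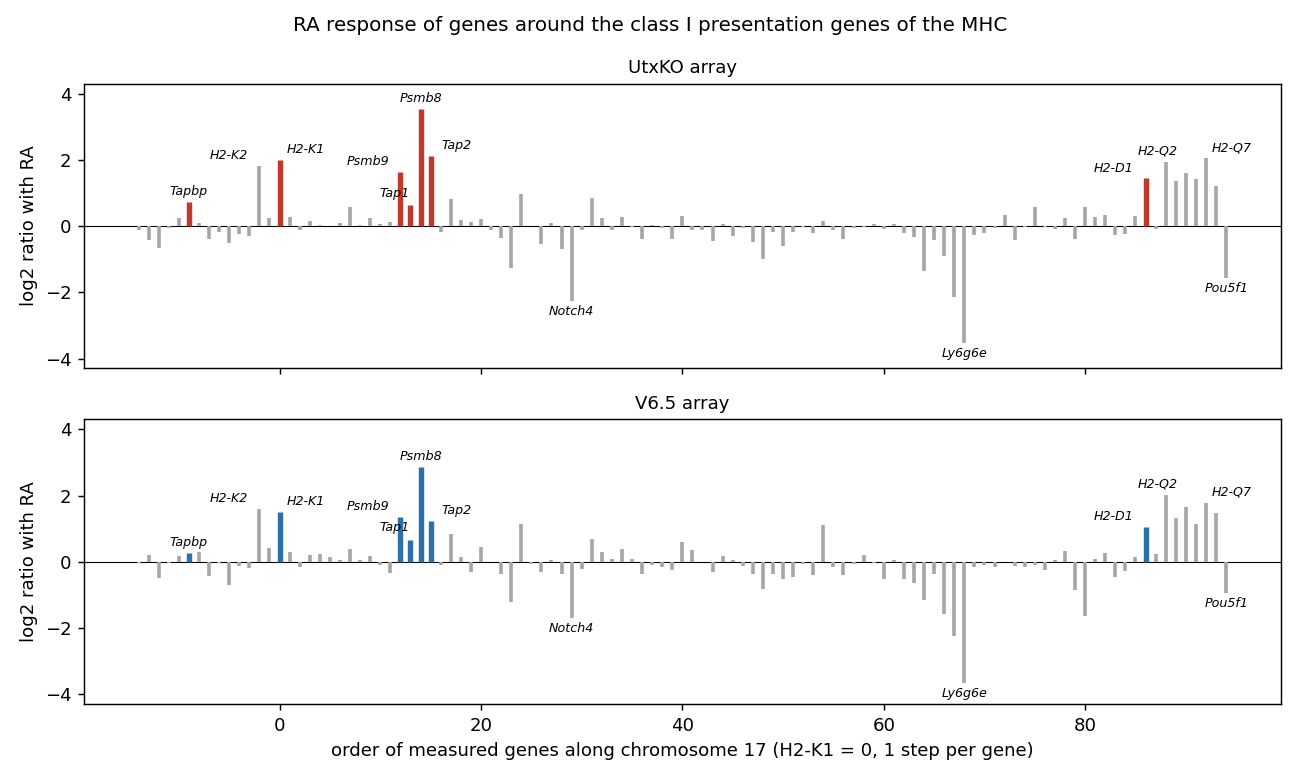
Log2 ratio with RA of each measured gene in its order along chromosome 17 around the MHC, on the UtxKO array (top) and the V6.5 array (bottom), with class I presentation genes coloured and other genes grey. The block Psmb9, Tap1, Psmb8 and Tap2 stands above 0 between H2-DMb1 (0.13 in UtxKO and -0.32 in V6.5) and H2-Ob (-0.17 in UtxKO and -0.09 in V6.5), and Notch4 and Ly6g6e between H2-K1 and H2-D1 point down on both arrays.

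In a list of other class I heavy chain genes and relatives, 12 of 28 measured rose and 3 fell, against 8.93% and 7.93% of all genes. H2-K2, which also rose, is not in this list. The list median was -0.0023 on the UtxKO array and 0.30 on the V6.5 array. Here too a probe for one gene can take up RNA of another, so the calls may not be separate. Besides the H2-Q genes, those that rose included H2-M3, which presents formylated peptides (1.46 in UtxKO cells and 1.52 in V6.5 cells), and H2-T23, the gene of the Qa-1 molecule (1.17 in UtxKO cells and 1.06 in V6.5 cells). H2-T3 fell (-0.65 in UtxKO cells and -0.63 in V6.5 cells), as did Cd1d1, which presents lipids (-0.33 in UtxKO cells and -0.51 in V6.5 cells).

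Of 8 genes for peptide loading and trimming, 2 rose and 1 fell, against 8.93% and 7.93% of all genes. The tapasin-related gene Tapbpl rose (0.97 in UtxKO cells and 0.70 in V6.5 cells, adjusted p = 0.0203 in limma), and so did Erap1, which trims peptides in the endoplasmic reticulum (1.08 in UtxKO cells and 0.69 in V6.5 cells, adjusted p = 0.0248 in limma). The general chaperone Calr fell (-0.49 in UtxKO cells and -0.35 in V6.5 cells), and its partner Pdia3 did not pass (-0.27 in UtxKO cells and -0.51 in V6.5 cells). The list median was 0.07 on the UtxKO array and 0.03 on the V6.5 array.

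Of 23 measured regulators of class I transcription, 5 rose and 1 fell, against 8.93% and 7.93% of all genes. Irf1, an interferon-induced activator of class I and immunoproteasome genes, rose (0.85 in UtxKO cells and 0.58 in V6.5 cells, adjusted p = 0.0251 in limma). Of the X box factors, Rfxap rose (0.69 in both lines) and Rfx5 rose (0.37 in UtxKO cells and 0.44 in V6.5 cells), while Rfxank had 0.13 in UtxKO cells and 0.14 in V6.5 cells. Of the Y box factors, Nfyc rose (0.64 in UtxKO cells and 0.82 in V6.5 cells), while Nfya (-0.11 in UtxKO cells and -0.18 in V6.5 cells) and Nfyb (-0.29 in UtxKO cells and -0.28 in V6.5 cells) did not pass. The orphan nuclear receptor Nr2f1 rose (1.88 in UtxKO cells and 0.99 in V6.5 cells). Nr2f2, of the same list, did not pass (2.17 in UtxKO cells and 0.20 in V6.5 cells, adjusted p = 0.191 in limma). The NF-kappa-B subunit Relb fell (-0.76 in UtxKO cells and -0.64 in V6.5 cells). Irf2 did not pass (1.05 in UtxKO cells and 0.46 in V6.5 cells, adjusted p = 0.0556 in limma). Nor did Stat2, which carries the interferon alpha and beta signal (-0.45 in UtxKO cells and -0.28 in V6.5 cells), or Irf9, its partner (-0.03 in UtxKO cells and -0.08 in V6.5 cells).

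Of 10 interferon ligand, receptor and kinase genes, 2 rose and 0 fell, against 8.93% and 7.93% of all genes. Those that rose were the interferon gamma receptor chain Ifngr1 (0.74 in UtxKO cells and 0.65 in V6.5 cells) and the kinase Jak2 (0.53 in UtxKO cells and 0.49 in V6.5 cells). The ligand genes did not pass, with ratios of 0.10 in UtxKO cells and 0.16 in V6.5 cells for Ifng and -0.10 in UtxKO cells and -0.15 in V6.5 cells for Ifnb1. A ratio near 0 does not say whether a ligand was present, since levels were not used here.

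Of 10 class II presentation genes 3 rose and 0 fell, against 8.93% and 7.93% of all genes. They were the chaperone Cd74 (1.504 in UtxKO cells and 0.83 in V6.5 cells), H2-Ab1 (0.82 in UtxKO cells and 0.85 in V6.5 cells) and H2-Oa (0.59 in UtxKO cells and 0.38 in V6.5 cells). The class II transactivator Ciita had 0.06 in UtxKO cells and -0.02 in V6.5 cells.

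**Figure D4:**
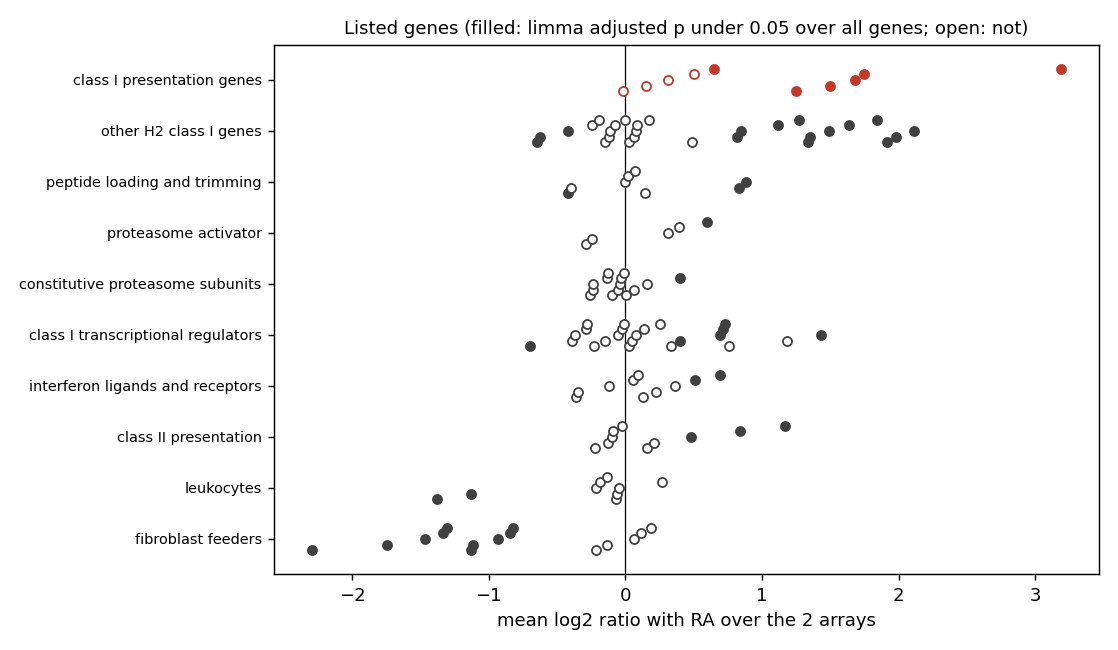
Mean log2 ratio with RA over both arrays for the genes of each list, 1 point per gene; filled points passed limma at an adjusted p under 0.05 over all genes and open points did not. Class I presentation genes (red) run from near 0 to 3.19, constitutive proteasome subunits sit around 0, and the fibroblast list lies mostly below 0.

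Markers of other cell types that express class I were read beside these results. Over all genes, 8.93% rose and 7.93% fell. Of 9 measured leukocyte markers 0 rose and 2 fell, Cd68 and Laptm5, and the list ran from -1.38 to 0.24 on the UtxKO array and from -1.38 to 0.29 on the V6.5 array. The pan-leukocyte gene Ptprc had -0.18 in UtxKO cells and -0.19 in V6.5 cells. Of 15 fibroblast markers 0 rose and 10 fell, with medians of -1.06 on the UtxKO array and -0.80 on the V6.5 array. The part of these markers in the class I ratios was not tested. Of 10 ES cell markers 2 fell, Pou5f1 and Klf4, with list medians of -0.30 on the UtxKO array and -0.62 on the V6.5 array. At an unadjusted limma p under 0.05, 7 of these 10 were lower and 1 was higher, against 17.9% and 16.8% of all genes. In RNA of a whole culture, fewer cells of a type and less RNA per cell cannot be told apart, and a ratio does not show whether a marker was present.

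Genes with a similar pair of ratios were sought by distance to the median pair of the 10 genes (1.09 in UtxKO and 0.86 in V6.5). The 8 closest of 19364 other genes with regular symbols were Tfap2c, Gnai1, Tmem88, Tex101, Cntfr, Cand2, Tlcd4 and Nxf3, at log2 distances of 0.00 to 0.04. The likeness rests on 2 values, and 34 genes lay within 0.1 of that pair. The median pair is not the pattern of any one member, since the 10 genes ran from -0.10 to 3.53 on the UtxKO array and from 0.06 to 2.85 on the V6.5 array.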

How the data were processed

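Total RNA was labelled from 200 ng input as oligo-dT primed cRNA, Cy3 for untreated and Cy5 for RA-treated cells, per the labels. The authors' deposited values, 1 per feature and array, are taken as log2 ratios; the submitters' processing notes name limma, with no version. How background was corrected, how ratios were normalized and which genome build applies were not stated there or in the labels. Column means are 0 within rounding, with medians of -0.03 on both arrays. Base 2 was inferred: the largest ratio, 5.86, would be 731680-fold as log10 and 352-fold as a natural log. Spot intensities were not used here, so signal over background is unknown, and precision is limited by having 2 arrays.

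Gene symbols came from the array's platform table (33026 with 1 symbol, 0 with several, 11371 with none here), and a gene's features were averaged, whether or not they repeat a probe. Of 22485 genes, 21964 matched RefSeq by Entrez number, all 10 members among them. limma 3.58.1 in R 4.3.3 (lmFit, eBayes; two-sided; 1 residual and 2.98 prior degrees of freedom) fitted an intercept over both ratios of all genes, with Benjamini-Hochberg adjustment. A difference between lines enters its residual, and its p-values measure only the spread between these 2 arrays. Python 3.11.15 with biopython 1.88 served for the promoters.

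All members and every gene of the pathway and cell type lists could be named, with the 8 nearest genes; neighbours and genes outside the lists were named after their values were seen. Members and lists were chosen with earlier results of these data known. Comparison of proteins was not made, and some genes of the lists were not analysed here. Alternatives were the median over features, median centring, scaling, the feature of smallest ratio, robust eBayes, treat, a 1.5-fold count and, added after the data were seen, a fit over all features.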

Additional observations from a re-analysis of the deposited data

Results flagged for a closer look

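In some genes the ratios had opposite signs on the 2 arrays, and the difference between lines was not tested in any of them. B2m had -0.10 in UtxKO cells and 0.064 in V6.5 cells. Ciita, the class II transactivator, had 0.063 in UtxKO cells and -0.0153 in V6.5 cells. H2-DMb1 had 0.13 in UtxKO cells and -0.32 in V6.5 cells, and Ltb had 0.59 in UtxKO cells and -1.63 in V6.5 cells. The median of 28 other H2 class I genes was -0.0023 in UtxKO cells and 0.30 in V6.5 cells. Of all 22485 genes, 5480 (24.4%) had opposite signs.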

How the results depend on the processing

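The 6 genes called and their direction held with the median over features, median centring, arrays scaled to one spread, the feature of smallest ratio and robust eBayes. Against 1.5-fold with treat, 3 were called, H2-K1 (adjusted p = 0.0497), Psmb8 and Psmb9, while H2-D1 (adjusted p = 0.113), Tap2 (0.176) and Tap1 (1) were not. In that test 196 of all genes rose and 97 fell, against 2009 and 1784 in the limma test against 0. Of 60 member results over 6 alternatives, 56 kept their sign and their side of the threshold, 3 lost the call and 1 turned its sign: Nlrc5 was at -0.37 (adjusted p = 0.0707 in limma) with the feature of smallest ratio, against 0.15 as the mean of its 2 features, which have opposite signs. In the fit over all features, 26 of the 30 member features rose and 0 fell, against 8.32% and 8.13% of all features; 21 of the 26 belong to H2-K1 and Tap1, and features of a gene may repeat one probe, so they are not separate measurements. The counts past 2-fold, also at 1.5-fold, stayed within 1.5 times, and the medians over the 10 genes moved by less than the spread between features. Median centring gave 2125 up and 1639 down over all genes, and the feature of smallest ratio 1633 and 1409. Leaving out an array leaves no residual degree of freedom, so only values remain: in V6.5 alone they ran from 0.06 to 2.85, and in UtxKO alone from -0.10 to 3.53. No paired analysis was possible because each line has 1 array. The number of arrays, and signal over background that was not used here, limit what can be said of small ratios.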

Other observations

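The retinoid X receptor gene Rxrb, whose product was isolated in mouse through its binding to a class I promoter element, had ratios of 0.03 in UtxKO cells and 0.24 in V6.5 cells and did not pass (adjusted p = 0.374 in limma). It lies between H2-K1 and the class II genes on chromosome 17. The lymphotoxin gene Ltb, between H2-K1 and H2-D1, had 0.59 in UtxKO cells and -1.63 in V6.5 cells, with no test of the difference.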
